A study of Mus musculus with 12 samples.

Results

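The gene expression of wild-type mouse bone marrow labelled with MN1 overexpression was compared with that of wild-type marrow without it. The comparison takes every library of Hopx wild-type genotype from 2 deposited count matrices, which were joined by gene symbol, and so uses 6 of the 12 libraries of the series, 3 against 3. The group called MN1_WT holds replicates 2, 3 and 4 of Hopx wild-type C57BL/6 mice labelled with MN1 overexpression and an age of 16 weeks. The group called aged_WT holds replicates 1, 6 and 7 of Hopx wild-type C57BL/6 mice labelled as old, with an age of 18 weeks and no MN1 label. The other 6 libraries, from Hopx-knockout marrow labelled old (aged_KO, 18 weeks) or MN1 overexpression (MN1_KO, 16 weeks), entered the shared fit and 1 side-by-side comparison. The labels give no vector, promoter, transplant, host, sex or batch, do not say whether the mouse or the human MN1 sequence was used, and do not state that each library is a separate animal. The p-values measure the spread between these libraries. Because the MN1 label, the labelled age and the count matrix coincide, their effects cannot be told apart.

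MN1 is a transcriptional coregulator that lacks a recognised DNA-binding domain and was first found at a chromosomal breakpoint in meningioma. When it is overexpressed in mouse marrow progenitors it acts as an oncogene of acute myeloid leukaemia, and its activity there depends on the homeobox factors HOXA9 and MEIS1, which normally keep early progenitors from maturing. MN1-driven leukaemia is known for immature cells with a block of granulocyte and monocyte maturation. Bulk marrow RNA mixes all cell types of the sample, so fewer cells of a type and less RNA per cell cannot be told apart.

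Mouse Mn1 (chromosome 5, 111417362 to 111457033, plus strand, GRCm38) was high in 1 of the 3 libraries labelled MN1_WT. It stood at 1.25, 1.02 and 0.458 CPM in aged_WT replicates 1, 6 and 7, against 0.383 CPM in MN1_WT replicate 2, 30.5 CPM in replicate 3 and 0.158 CPM in replicate 4 (CPM, counts scaled to the library size after TMM adjustment). Replicate 3 was therefore above every aged_WT library, whereas replicates 2 and 4 were below all of them. The log2 fold change of Mn1 was 3.51 ± 1.43 (SE) and did not pass the threshold (edgeR quasi-likelihood test with Benjamini-Hochberg adjustment, adjusted p = 0.167). Without MN1_WT replicate 3 it was -1.71 (edgeR adjusted p = 0.115). How much of an introduced human MN1 sequence these mouse gene counts would hold was not tested. The level of mouse Mn1 in MN1_WT replicates 2 and 4 thus goes against their label, and every direction given for the group is a direction of libraries labelled MN1_WT.

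Genes that MN1 is known to work with were high in the same replicate. Hoxa9 stood at 5.23, 4.66 and 4.58 CPM in aged_WT and at 9.11, 119 and 2.06 CPM in MN1_WT replicates 2, 3 and 4. Meis1, the cofactor that binds DNA together with HOX proteins, stood at 6.93, 7.04 and 8.55 CPM and at 5.44, 122 and 4.39 CPM. On the TPM scale, which corrects for gene length, replicate 3 held 11 of Mn1, 85.3 of Hoxa9, 83.4 of Hoxa10 and 79.9 of Meis1, so Mn1 was the lowest of these 4 transcripts. Neither Hoxa9 (log2 fold change 3.18 ± 1.12, edgeR adjusted p = 0.124) nor Meis1 (2.55 ± 1.06, edgeR adjusted p = 0.175) passed over the group, and Meis1 was at -0.61 without replicate 3. Hopx, the gene that defines the genotype, was at 15, 35.1 and 15.3 CPM in aged_WT and at 27, 11.8 and 25.3 CPM in MN1_WT, with overlapping groups and a log2 fold change of -0.03 ± 0.45 (edgeR adjusted p = 0.974).

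The sex-specific transcripts differed between the groups as well. Eif2s3y, Uty, Kdm5d and Ddx3y, 4 genes of the Y chromosome, together held 1, 2 and 3 counts in the aged_WT libraries and 6105, 1971 and 5732 counts in MN1_WT replicates 2, 3 and 4. Xist, the RNA that coats the inactive X chromosome, was at 485, 688 and 503 CPM in aged_WT, at 17.6 CPM in MN1_WT replicate 2 and 2.37 CPM in replicate 4, and at 3353 CPM in replicate 3, which held both kinds of transcript. Sex transcripts and the MN1 label cannot be told apart in this comparison. In a principal component analysis of all 12 libraries over the tested genes, the first component took 57.9% of the variance and put the aged_WT libraries between -54 and -49.1, MN1_WT replicates 2 and 4 at -17.4 and -27.6, and replicate 3 at 97.4. Libraries held 18579131 to 25299033 counts in the 2 wild-type groups.

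**Figure D1:**
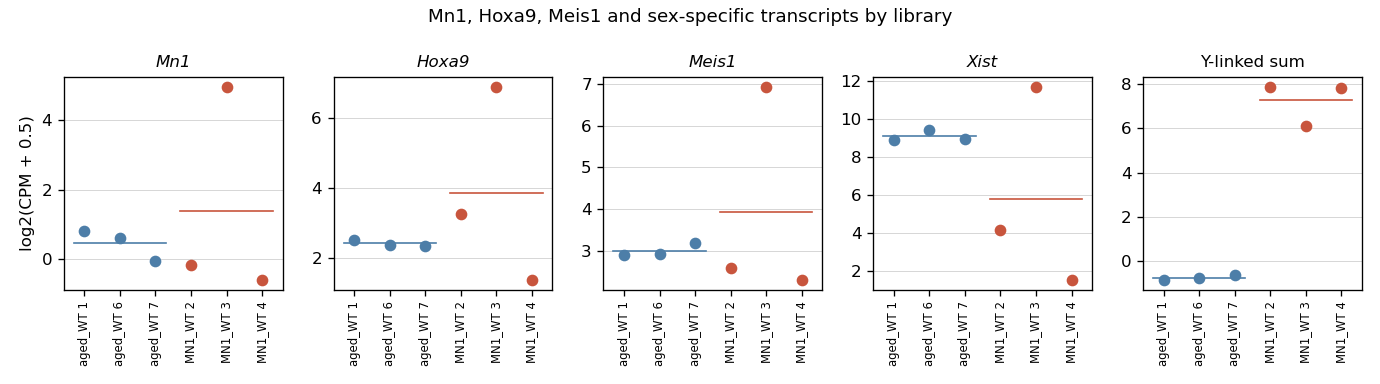
Levels of Mn1, Hoxa9, Meis1, Xist and the sum of 4 Y-linked genes in the 6 wild-type libraries, as log2(CPM + 0.5); each point is 1 library and each line the mean of the 3 values of a group. Mn1, Hoxa9 and Meis1 are high in MN1_WT replicate 3 alone, and the Y-linked sum is high in all 3 MN1_WT libraries.

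Of 24444 genes in the matrices, 13937 passed the filter on low counts and were tested. At an adjusted p under 0.05, 499 genes differed between MN1_WT and aged_WT (3.58% of those tested), of which 140 (1.00%) were higher and 359 (2.58%) lower in MN1_WT. All 499 had groups that did not overlap, whereas 37.9% of all tested genes had groups that did not overlap, 18.5% with MN1_WT higher and 19.4% with MN1_WT lower. The median log2 fold change over all tested genes was 0.06. Among the 499, 48 were at least 4-fold higher and 165 at least 4-fold lower. A further 605 genes were at least 4-fold apart without passing, 445 of them higher in MN1_WT.

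The number of genes called depended on which library was present. Leaving out aged_WT replicates 1, 6 or 7 gave 135, 78 and 103 genes, and leaving out MN1_WT replicates 2, 3 or 4 gave 130, 397 and 340. With MN1_WT replicate 3 alone against aged_WT, where that lone library is assumed to vary like the other groups, 2465 genes were called, 1691 of them higher. In all 6 leave-one-out fits 64 genes were called, 13 higher and 51 lower. Without the MN1_KO libraries in the shared fit 1529 genes were called, and without the aged_KO libraries 217. A fit of only the 6 wild-type libraries called 704 genes, 216 higher and 488 lower, of which 377 were among the 499. DESeq2 called 1791 genes and edgeR on library totals without TMM called 424, of which 39.9% were higher against 28.1% with TMM; that scaling moved the median of all genes to 0.22. Without TMM Vwf, Cd48 and Cd300e were not called (edgeR adjusted p = 0.0664, 0.0669 and 0.0557).

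The spread among the MN1_WT libraries was large. A gene was counted as outside the aged_WT range in a library where its log2(CPM + 0.5) lay at least 1 unit above the highest or below the lowest aged_WT library. Replicates 2, 3 and 4 had 0.918%, 10.9% and 1.28% of the tested genes above that range and 2.53%, 8.47% and 2.61% below it, and counts of list members outside the range are to be read beside these shares. In replicate 3 alone 1416 genes (10.2% of those tested) lay above that range and 879 (6.31%) below it. In all 3 MN1_WT libraries 35 genes lay above and 203 below, and in replicates 2 and 4 but not 3, 25 lay above and 52 below. The genes far above in replicate 3 alone included Kif26b, a kinesin, at 0.455, 0.291 and 0.0509 CPM in aged_WT and at 0.574, 230 and 0.356 CPM in MN1_WT replicates 2, 3 and 4. Ddx4, a germ-cell RNA helicase, was at 2.41, 338 and 1.11 CPM in these replicates and at most 1.22 CPM in aged_WT. Unc13c, a synaptic vesicle protein, had 0 counts in every aged_WT library and reached 120 CPM in replicate 3. None of these 3 passed the threshold over the group.

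**Figure D2:**
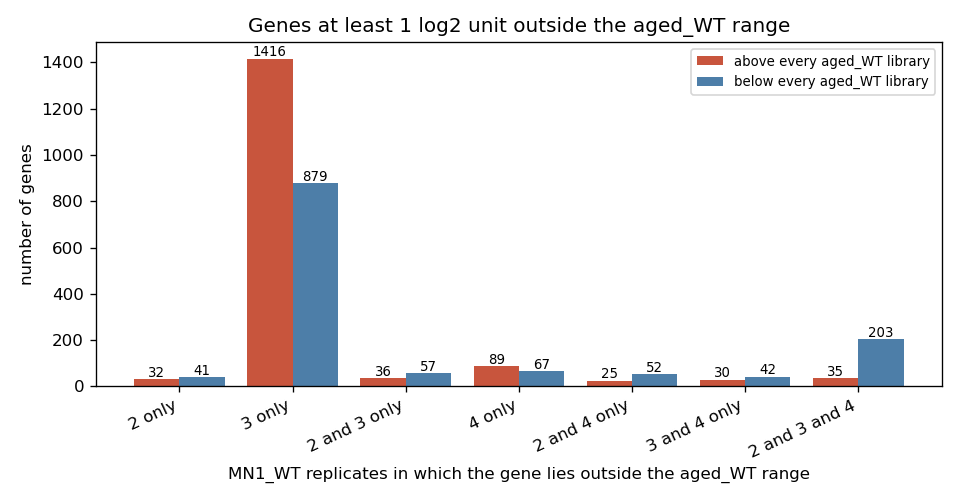
Number of genes (vertical axis) at least 1 log2 unit above (red) or below (blue) every aged_WT library, by the MN1_WT replicates in which this held (horizontal axis). Replicate 3 alone accounts for 1416 genes above and 879 below, against 35 and 203 in all 3 replicates.

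Many early progenitor genes were high in replicate 3, and few lay at least 1 log2 unit above the aged_WT range in replicates 2 and 4. Of 14 tested genes of the HoxA cluster and its TALE partners, which pattern early haematopoietic cells, 0 passed, beside 3.58% of all genes. Their median log2 fold change was 1.91 against 0.06 over all genes. Of these 14, 10 lay above the aged_WT range in replicate 3 and 0 in replicates 2 and 4, and the median without replicate 3 was -0.10. Hoxa10 stood at 0.682, 0.631 and 0.662 CPM in aged_WT and at 0.842, 83 and 0.514 CPM in MN1_WT. Of 20 stem and progenitor transcription factors 0 passed, with a median of 0.75, and 12 lay above the range in replicate 3 against 1 each in replicates 2 and 4. Hmga2, a chromatin protein of fetal stem cells, went from 0.398, 0.194 and 0.407 CPM to 1.68, 133 and 1.23 CPM without passing (edgeR adjusted p = 0.0553). Gata2, a stem cell and mast cell factor, was at 46.3, 37.4 and 36.3 CPM in aged_WT and at 79.3, 664 and 67.8 CPM in MN1_WT (edgeR adjusted p = 0.0637). Erg, an ETS factor of stem cells, was at 30.3 to 37 CPM against 60.4, 217 and 58.8 CPM (edgeR adjusted p = 0.056). For Hmga2, Gata2 and Erg all 3 MN1_WT libraries were above all aged_WT libraries, by a smaller step in replicates 2 and 4. This held for 6 of the 20 factors, beside 18.5% of all genes.

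Surface genes of stem and progenitor cells split. Of 19 tested, 0 were called higher and 3 lower, with a median of 0.48, beside 1.00% and 2.58% of all genes. Ly6a, which encodes Sca-1, fell from 201, 218 and 118 CPM to 57.8, 44.4 and 73 CPM (-1.62 ± 0.37, edgeR adjusted p = 0.0389). Cd48, a SLAM-family adhesion protein, fell from 130, 126 and 106 CPM to 73.4, 71.9 and 69 CPM (-0.76 ± 0.14, edgeR adjusted p = 0.0172). Flt3, the receptor of early lymphoid and myeloid progenitors, was at 32.2, 26.1 and 28.4 CPM in aged_WT and at 13.7, 599 and 4.43 CPM in MN1_WT, and so was low in replicates 2 and 4 and high in replicate 3. Ly6a lost its call without any single one of the 6 libraries (edgeR adjusted p 0.0586 to 0.137), and Cd48 without aged_WT replicates 1 and 6 (0.0667 and 0.0791) and MN1_WT replicates 2 and 4 (0.058 and 0.0554).

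Immediate early genes were lower in the libraries labelled MN1_WT; they encode transcription factors and signal modulators that are switched on within minutes of a stimulus. Of 23 tested, 8 fell and 0 rose, with a median log2 fold change of -1.58, beside 2.58% of all genes called lower. In 15 of the 23 all 3 MN1_WT libraries were below every aged_WT library, beside 19.4% of all genes. Fosb, an AP-1 subunit (chromosome 7, 19302696 to 19310051, minus strand, GRCm38), fell from 44.7, 76.4 and 155 CPM to 3.52, 0.87 and 1.5 CPM (-5.55 ± 0.63, edgeR adjusted p = 0.00345). Jun, its dimer partner, fell from 147, 357 and 629 CPM to 58.5, 31.5 and 41.2 CPM (-3.11 ± 0.51, edgeR adjusted p = 0.0136). Both genes were far below the aged_WT range in every MN1_WT library, although aged_WT itself varied several-fold. Junb fell from 488, 432 and 589 CPM to 179, 72.2 and 171 CPM (-1.84 ± 0.33, edgeR adjusted p = 0.0173), and Egr1, a zinc-finger factor that also restrains stem cell division, from 76.3, 103 and 209 CPM to 24.6, 10.2 and 23.7 CPM (-2.73 ± 0.49, edgeR adjusted p = 0.017). Fos, Jund, Ier3 and Ier5 were the other members that fell. Aged_WT replicate 7 was the highest library for Fosb, Jun, Junb and Egr1, and without it 2 of 23 members were called, with a median of -0.89. Without aged_WT replicate 6 also 2 were called, and without aged_WT replicate 1 or MN1_WT replicates 2, 3 or 4, 5, 3, 6 and 5. Junb lost its call without aged_WT replicates 1, 6 or 7 (edgeR adjusted p 0.0526, 0.0558 and 0.0723), and Egr1 without aged_WT 6 or 7 or MN1_WT 2 (0.0515, 0.0586 and 0.0513), whereas Fosb and Jun kept theirs in all 6 fits.

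Heat shock genes, chaperones of which many but not all are controlled by HSF1 at heat shock elements, fell together with them. Control by HSF1 was not tested. The promoters of the paralogs Hspa1a and Hspa1b, the 2 members that fell most, and of Hsph1 are shown because they carry the element core. Each is the 250 bases before the gene's start in RefSeq (GRCm38.p6, minus strand), at chr17:34972157-34972406, chr17:34959239-34959488 and chr5:149636337-149636586. Capitals mark the core, searched as GAANNTTC or TTCNNGAA, 2 spellings that are searched on both strands because each is its own reverse complement.
Hspa1a: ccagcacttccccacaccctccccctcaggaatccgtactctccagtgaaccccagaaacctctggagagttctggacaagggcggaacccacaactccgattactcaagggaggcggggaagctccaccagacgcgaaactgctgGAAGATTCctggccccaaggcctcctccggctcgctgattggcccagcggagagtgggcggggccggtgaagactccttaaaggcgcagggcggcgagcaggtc
Hspa1b: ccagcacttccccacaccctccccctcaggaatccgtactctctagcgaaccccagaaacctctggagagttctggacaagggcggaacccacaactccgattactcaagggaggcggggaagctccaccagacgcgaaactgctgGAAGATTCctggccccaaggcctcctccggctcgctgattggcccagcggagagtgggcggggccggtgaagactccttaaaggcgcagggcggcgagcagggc
Hsph1: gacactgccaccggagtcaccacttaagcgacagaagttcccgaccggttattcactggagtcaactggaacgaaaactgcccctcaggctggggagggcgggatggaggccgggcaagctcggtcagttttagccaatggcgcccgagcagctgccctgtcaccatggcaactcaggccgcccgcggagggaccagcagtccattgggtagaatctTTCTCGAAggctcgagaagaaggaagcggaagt
The first base of the core lay at -104 from the start in Hspa1a and Hspa1b and at -33 in Hsph1. The Hspa1a and Hspa1b windows were identical at 247 of 250 bases (98.8%), and the split of reads between these near-identical genes is uncertain. The core stood in 7 of the 10 listed heat shock genes found in the promoter table (70%) and in 3932 of 27025 windows of all genes (14.5%). A match describes letters and is not a bound site.

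Of 14 heat shock genes tested, 7 fell and 0 rose, with a median log2 fold change of -0.81, beside 2.58% of all genes called lower. Hspa1a fell from 15.5, 36.6 and 92.4 CPM to 1.11, 0.313 and 0.989 CPM (-5.91 ± 0.88, edgeR adjusted p = 0.00976), and Hspa1b from 41.8, 71.3 and 151 CPM to 3.56, 1.11 and 3.84 CPM (-4.96 ± 0.68, edgeR adjusted p = 0.00782). These inducible chaperones were again highest in aged_WT replicate 7. Hspa8, the constitutive member of the same HSP70 family, fell from 2607, 3232 and 3195 CPM to 1420, 1181 and 1276 CPM (-1.22 ± 0.16, edgeR adjusted p = 0.00638). Dnajb1, the co-chaperone of HSP70, fell from 96.3, 115 and 145 CPM to 54.6, 53.1 and 58 CPM (-1.11 ± 0.16, edgeR adjusted p = 0.00825). For Hspa8 and Dnajb1 the 3 MN1_WT libraries lay close together and below the whole aged_WT range. All 4 kept their call in the 6 leave-one-out fits. Hspa5, Hsph1 and Dnaja1 completed the 7. The number of list members called was 4 to 6 when 1 library was left out and 5 without TMM.

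**Figure D3:**
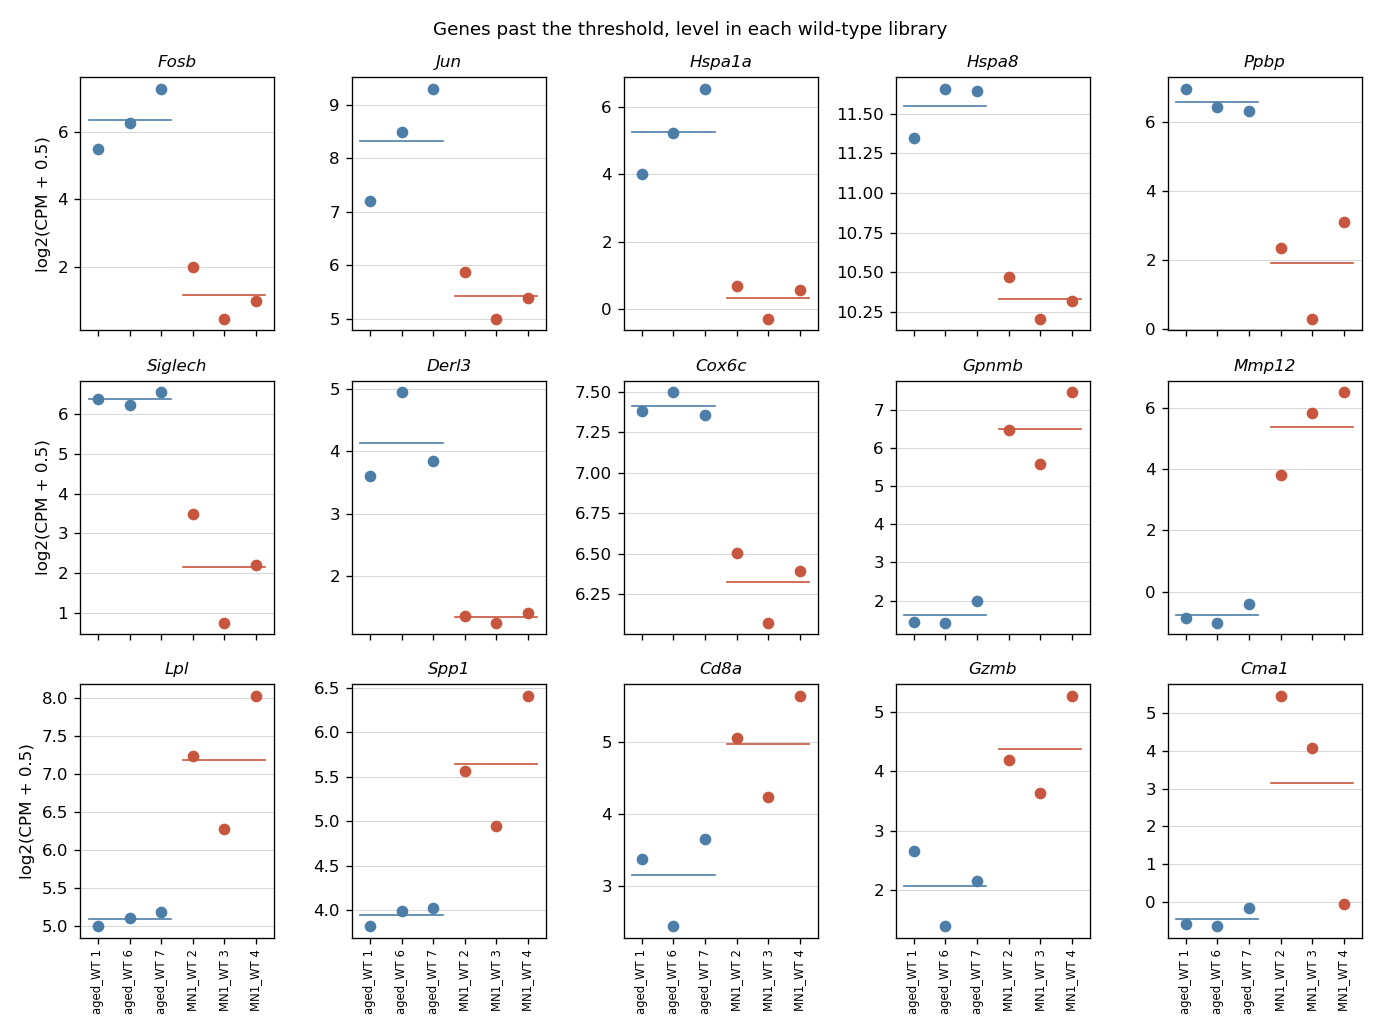
Levels of 15 genes past the threshold in the 6 wild-type libraries, as log2(CPM + 0.5) on an axis of its own for each gene; points are libraries and lines are group means. In each panel the 3 MN1_WT libraries lie on 1 side of the 3 aged_WT libraries, as was so for all 499 genes past the threshold. For Cma1 replicate 4 lies close to the aged_WT libraries.

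Cytosolic ribosomal protein genes were lower across almost the whole list. Of 45 tested, 14 fell and 0 rose, with a median log2 fold change of -0.69, beside 2.58% of all genes called lower. In all 3 MN1_WT libraries 44 were lower than in every aged_WT library, beside 19.4% of all genes. The 14 that fell had log2 fold changes of -1.34 to -0.77. Summed over the list, the level was 41353 to 47280 CPM in aged_WT and 28895, 30352 and 24963 CPM in MN1_WT. In contrast to the HoxA genes, the summed level of replicate 3 was not apart from replicates 2 and 4 here. The calls depended on single libraries: 0 of 45 were called without any 1 of the aged_WT libraries or without MN1_WT replicate 2 or 4, 12 without MN1_WT replicate 3 and 4 without TMM, with medians of -0.54 to -0.74.

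Of 37 oxidative phosphorylation genes, which encode subunits of the mitochondrial respiratory chain, 2 fell, with a median of -0.44, beside 2.58% of all genes called lower. In all 3 MN1_WT libraries 32 were lower than in every aged_WT library, beside 19.4% of all genes. Cox6c, a complex IV subunit, fell from 166, 180 and 163 CPM to 90.2, 66.9 and 83.4 CPM (-1.08 ± 0.24, edgeR adjusted p = 0.0346). Ndufa1, a complex I subunit, fell from 73.9, 83.2 and 58.7 CPM to 38.7, 27.8 and 37.6 CPM (-1.05 ± 0.24, edgeR adjusted p = 0.0399). Neither was called when any 1 of the 6 libraries was left out (edgeR adjusted p 0.0671 to 0.154 over both genes). Gene length moved with both results. The median log2 fold change was -0.22 in the quintile of genes with the shortest exon length and 0.22 in the longest quintile, and 152 of the genes called lower were in the shortest quintile against 29 in the longest. Of the ribosomal protein genes 24 of 45, and of the oxidative phosphorylation genes 24 of 37, were in the shortest quintile. The part of length in these results was not tested.

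**Figure D4:**
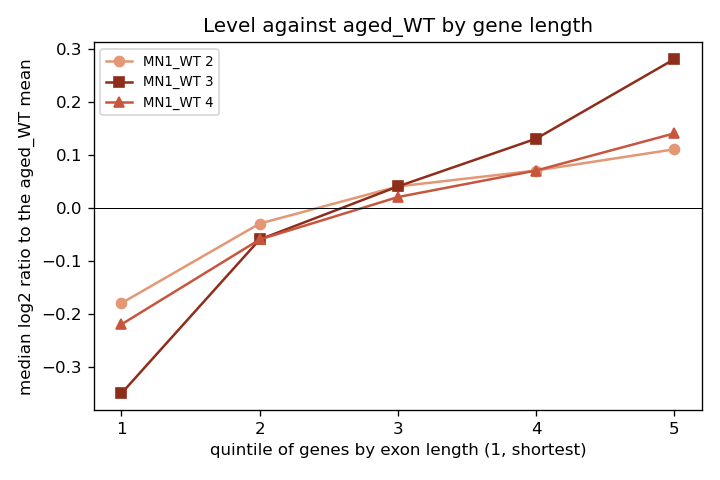
Median log2 ratio of each MN1_WT library to the aged_WT mean (vertical axis) in quintiles of genes by exon length (horizontal axis, 1 is the shortest). In the shortest quintile the medians are -0.18, -0.35 and -0.22 in replicates 2, 3 and 4, and in the longest quintile 0.11, 0.28 and 0.14.

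Genes of nucleolar ribosome assembly and MYC function differed in sign from the ribosomal proteins. Of 24 tested, 2 rose and 0 fell, with a median of 0.55, beside 1.00% of all genes called higher. In all 3 MN1_WT libraries 18 were higher than in every aged_WT library, beside 18.5% of all genes. Nop2, an rRNA methyltransferase, rose from 41.9, 40.6 and 46.3 CPM to 71.5, 67.1 and 58.8 CPM (0.61 ± 0.12, edgeR adjusted p = 0.0255). Rrp12, a ribosome export factor, rose from 17.8, 20.9 and 23.7 CPM to 38.8, 30.9 and 29.9 CPM (0.68 ± 0.16, edgeR adjusted p = 0.046). Rrp12 lost its call in every leave-one-out fit (edgeR adjusted p 0.0547 to 0.158) and with only the 6 wild-type libraries (0.0658), and Nop2 without any aged_WT library (0.0929, 0.121 and 0.0713) and without MN1_WT replicate 2 (0.0689). Of 26 mitotic genes and 27 DNA replication genes 0 passed in either direction, with medians of -0.04 and -0.29. Cdkn1c, the CDK inhibitor p57 of quiescent stem cells, rose from 0.909, 0.485 and 0.865 CPM to 6.17, 3.13 and 4.79 CPM (2.63 ± 0.43, edgeR adjusted p = 0.0133), and lost its call without aged_WT replicates 6 or 7 (0.0696 and 0.0533).

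Megakaryocyte and platelet genes were lower. Of 20 tested, 9 fell and 0 rose, with a median log2 fold change of -1.23, beside 2.58% of all genes called lower. Ppbp, a platelet granule chemokine, fell from 124, 86.5 and 79.9 CPM to 4.63, 0.731 and 8.07 CPM (-4.44 ± 0.83, edgeR adjusted p = 0.0189). Pf4, platelet factor 4, fell from 46.9, 40.4 and 42.6 CPM to 3.91, 2.92 and 7.6 CPM (-3.17 ± 0.52, edgeR adjusted p = 0.0136). Gp1bb, a subunit of the von Willebrand factor receptor, fell from 11, 10.7 and 10.6 CPM to 3.45, 3.03 and 3.13 CPM (-1.75 ± 0.26, edgeR adjusted p = 0.00907). Vwf itself, which endothelium also makes, fell from 29.4, 30.6 and 30.5 CPM to 5.82, 12.7 and 10.2 CPM (-1.66 ± 0.37, edgeR adjusted p = 0.0372). As for all 499 called genes, the groups did not overlap for any of them. Below the aged_WT range lay 13 of the 20 in replicate 2, 9 in replicate 3 and 12 in replicate 4, and replicates 2 and 4, which were low in Mn1, were low in these genes too. Leaving out MN1_WT replicate 3 gave 12 calls, and leaving out any other library 2 to 5. Without TMM 6 were called. Ppbp lost its call without aged_WT replicates 1, 6 or 7 or MN1_WT replicate 2 (edgeR adjusted p 0.0586 to 0.0693), Vwf without all but MN1_WT replicate 3 (0.0671 to 0.121) and Pf4 without MN1_WT replicate 2 (0.0523).

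B-lineage genes were lower as well. Of 24 B cell genes 3 fell and 0 rose, with a median of -1.84, beside 2.58% of all genes called lower, and 17 were lower in all 3 MN1_WT libraries, beside 19.4%. Cd79b, a signalling chain of the B cell receptor, fell from 110, 142 and 233 CPM to 45.5, 16.4 and 39.9 CPM (-2.25 ± 0.39, edgeR adjusted p = 0.0157). The mature B cell receptors Fcer2a (CD23) and Cr2 (CD21) fell by 3.73 ± 0.79 and 4.14 ± 0.9 on the log2 scale (edgeR adjusted p = 0.0319 and 0.0345), with aged_WT values of 4.38, 14 and 31.2 CPM for Fcer2a that themselves spread widely. Rag1, the recombinase of precursor cells, was at 60.6, 55 and 69.5 CPM in aged_WT and at 68.6, 3.79 and 41.9 CPM in MN1_WT, and so was low in replicate 3. Cd79b was not called without aged_WT replicates 6 or 7 (edgeR adjusted p = 0.0515 and 0.0566). Fcer2a and Cr2 were not called without aged_WT replicate 6 (0.0861 and 0.0927) or 7 (0.119 and 0.129) or MN1_WT replicate 2 (0.0822 and 0.0872) or 3 (0.0522 and 0.0669), nor with only the 6 wild-type libraries (0.0681 and 0.0744).

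Of 12 plasma cell genes 5 fell and 0 rose, with a median of -1.73, beside 2.58% of all genes called lower. Derl3, a component of endoplasmic reticulum quality control that secretory cells use, fell from 11.7, 30.4 and 13.9 CPM to 2.07, 1.88 and 2.14 CPM (-3.2 ± 0.5, edgeR adjusted p = 0.011) and kept its call in all 6 leave-one-out fits. Sdc1 (CD138), the surface marker of plasma cells, fell from 36.7, 54.9 and 36 CPM to 7.08, 4.87 and 11.1 CPM (-2.47 ± 0.47, edgeR adjusted p = 0.0206), but not without aged_WT replicates 1, 6 or 7 or MN1_WT replicate 2 (0.055, 0.0859, 0.0635 and 0.0678). Tnfrsf17, the survival receptor BCMA, and Mzb1, an immunoglobulin chaperone, also fell and were not called in any leave-one-out fit (edgeR adjusted p 0.0547 to 0.156 over both), nor was Mzb1 with only the 6 wild-type libraries (0.0511). Fcrl5, an Fc receptor-like protein of B and plasma cells named for the size of its change, fell from 9.04, 11.9 and 7.18 CPM to 0.383, 0.0348 and 0.396 CPM (-5.11 ± 0.88, edgeR adjusted p = 0.0157), but not without aged_WT replicate 6 or MN1_WT replicate 2 (0.0584 and 0.0513). Of the 12 genes 1 was called without any 1 aged_WT library or MN1_WT replicate 2, and 3 without MN1_WT replicate 3 or 4.

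Dendritic cell genes fell in 5 of 18 tested members and rose in 0, with a median of -1.07, beside 2.58% of all genes called lower. Siglech, a lectin of plasmacytoid dendritic cells (chromosome 7, 55768178 to 55778925, plus strand, GRCm38), fell from 83.1, 74.9 and 93.3 CPM to 10.6, 1.18 and 4.11 CPM (-3.99 ± 0.68, edgeR adjusted p = 0.0157). Klk1, a kallikrein protease that was listed with them, fell from 11.5, 17.6 and 20.1 CPM to 1.19, 0.174 and 0.593 CPM (-4.65 ± 0.65, edgeR adjusted p = 0.00782). Cd209a (DC-SIGN), a lectin of monocyte-derived dendritic cells, fell from 9.38, 7.04 and 14.2 CPM to 0.46, 0.209 and 0.593 CPM (-4.59 ± 0.58, edgeR adjusted p = 0.00638). Siglech and Cd209a were thus low in all 3 MN1_WT libraries, but not every member of the list was. Above the aged_WT range lay 0, 2 and 1 of the 18 in replicates 2, 3 and 4, and below it 8, 12 and 10. The summed level of the list was 709, 743 and 857 CPM in aged_WT and 313, 1113 and 304 CPM in MN1_WT replicates 2, 3 and 4. Flt3, a member of this list too, was at 599 CPM in replicate 3. Ccr7, the receptor that guides dendritic cells and lymphocytes to lymph nodes, fell by 4.11 ± 0.71 on the log2 scale (edgeR adjusted p = 0.0157). Siglech was not called without aged_WT replicates 6 or 7 (edgeR adjusted p = 0.0515 and 0.0529), nor Ccr7 without aged_WT replicate 7 or MN1_WT replicate 2 (0.0566 and 0.0512); Klk1 and Cd209a were called throughout. Without aged_WT replicates 6 and 7 in turn, 3 and 2 of the list were called.

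Of 12 MHC class II genes 2 fell and 0 rose, with a median of -1.32, beside 2.58% of all genes called lower. H2-DMb1, which loads peptides onto class II molecules, fell from 49.9, 56.2 and 79.7 CPM to 25.7, 28 and 31.8 CPM (-1.12 ± 0.2, edgeR adjusted p = 0.0165), but not without aged_WT replicate 6 or 7 or MN1_WT replicate 2 (0.0539, 0.0569 and 0.0622). H2-DMb2, its close copy, was the other member that fell (-2.63 ± 0.57, edgeR adjusted p = 0.0341), but not without any 1 library other than aged_WT replicate 1 (0.0605 to 0.118) and not with only the 6 wild-type libraries (0.0638). The summed level of the class II list was 1457, 2160 and 3892 CPM in aged_WT and 1021, 541 and 1527 CPM in MN1_WT replicates 2, 3 and 4, so that replicate 4 lay inside the aged_WT range. The summed level of the B cell list was 986 to 1938 CPM in aged_WT and 622, 110 and 461 CPM in MN1_WT, below that range in all 3; the part of B cell genes in the class II result was not tested.

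Some NK receptor genes fell and some T cell genes rose. Of 15 NK and cytotoxic genes 4 fell and 1 rose, with a median of -0.18, beside 2.58% and 1.00% of all genes. The summed level of this list was 248, 276 and 366 CPM in aged_WT and 313, 157 and 404 CPM in MN1_WT replicates 2, 3 and 4. The list as a whole thus did not move 1 way. The NK receptors Klra8, Klrb1c (NK1.1) and Klri2 fell by 4.31 ± 0.65, 2.07 ± 0.36 and 3.29 ± 0.54 on the log2 scale (edgeR adjusted p = 0.0103, 0.0157 and 0.0138), Klra8 from 3.69, 6.7 and 8.35 CPM to 0.383, 0.348 and 0.198 CPM. Ncr1 was the other member that fell. Gzmb, the granule protease of cytotoxic lymphocytes, rose from 5.8, 2.14 and 3.97 CPM to 17.8, 12 and 38 CPM (2.51 ± 0.46, edgeR adjusted p = 0.0176). Klrb1c and Klri2 were not called without aged_WT replicate 6 (0.0533 and 0.0539) or 7 (0.0566 and 0.0533), nor Gzmb (0.0748 and 0.0806, and 0.0533 with only the 6 wild-type libraries), and without either of these libraries 1 NK gene was called lower and 0 higher.

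Of 20 T cell genes 3 rose and 0 fell, with a median of 0.91, beside 1.00% of all genes called higher. Above the aged_WT range lay 11 in replicate 4 and 2 each in replicates 2 and 3. The shares of all genes there were 1.28%, 0.918% and 10.9% in replicates 4, 2 and 3. Cd8a, the coreceptor of cytotoxic T cells, rose from 9.89, 4.95 and 12.1 CPM to 32.5, 18.4 and 49.1 CPM (1.89 ± 0.4, edgeR adjusted p = 0.0301). Lat, an adaptor that carries the signal of the T cell receptor, rose from 12.3, 11.4 and 16.5 CPM to 25.7, 41.2 and 33.6 CPM (1.32 ± 0.23, edgeR adjusted p = 0.0157). Cd8a kept its call only without MN1_WT replicate 3 (otherwise edgeR adjusted p 0.0649 to 0.109, and 0.0658 with only the 6 wild-type libraries), and Lat lost its call without aged_WT replicate 1 or 6 (0.0618 and 0.0736). Among the MN1_WT libraries replicate 3 was the lowest for Cd8a and the highest for Lat. Without aged_WT replicate 1 or 6 the list had 0 calls, without aged_WT replicate 7 it had 1, without MN1_WT replicate 3 it had 6, and without MN1_WT replicate 2 or 4 it had 2 and 1.

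Macrophage genes moved in 2 of 22 tested members, both upward, with a median of 0.00, beside 1.00% of all genes called higher. Gpnmb, a glycoprotein of lipid-laden macrophages and osteoclasts (chromosome 6, 49036546 to 49070929, plus strand, GRCm38), rose from 2.22, 2.18 and 3.46 CPM to 88.2, 47.4 and 175 CPM (5.3 ± 0.55, edgeR adjusted p = 0.00188). Lpl, lipoprotein lipase of macrophages and adipocytes, rose from 31.5, 34.1 and 35.9 CPM to 150, 77.5 and 261 CPM (2.27 ± 0.39, edgeR adjusted p = 0.0157). For both genes replicate 4 was the highest and replicate 3, the library high in Mn1, the lowest of the MN1_WT libraries. Outside the list, and named for the size of their changes, stood Mmp12 and Atp6v0d2. Mmp12, the macrophage elastase (chromosome 9, 7344381 to 7369499, plus strand, GRCm38), was at 0.0568, 0 and 0.255 CPM in aged_WT and at 13.5, 55.9 and 89.8 CPM in MN1_WT (8.92 ± 1.29, edgeR adjusted p = 0.00836). Atp6v0d2, a proton pump subunit of osteoclasts and macrophages, rose from 0.568, 0.971 and 2.19 CPM to 11.8, 7.72 and 23 CPM (3.5 ± 0.54, edgeR adjusted p = 0.0107). Of 17 mesenchymal stroma and bone genes, with a median of 0.85, 1 rose and 0 fell. This was Spp1, osteopontin, which osteoblasts and macrophages secrete and which rose from 13.6, 15.4 and 15.8 CPM to 46.9, 30.2 and 84.5 CPM (1.85 ± 0.33, edgeR adjusted p = 0.017). In TPM, MN1_WT replicate 4 held 106 of Lpl, 102 of Spp1, 76.1 of Gpnmb, 41.1 of Mmp12 and 15.3 of Atp6v0d2. Lpl and Spp1 were not called without aged_WT replicates 1, 6 or 7 (edgeR adjusted p 0.0638 to 0.0732 over both genes) and Atp6v0d2 not without aged_WT replicate 6 (0.0607), while Gpnmb and Mmp12 were called in all 6 fits.

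Mast cell proteases rose. Of 13 basophil and mast cell genes 3 rose and 0 fell, with a median of 0.94, beside 1.00% of all genes called higher. Above the aged_WT range lay 4, 7 and 0 in replicates 2, 3 and 4, beside 0.918%, 10.9% and 1.28% of all genes. Cma1, mast cell chymase, was at 0.17, 0.146 and 0.407 CPM in aged_WT and at 43, 16.2 and 0.475 CPM in MN1_WT (6.33 ± 1.28, edgeR adjusted p = 0.0261), so that replicate 4 barely passed the aged_WT range. With only the 6 wild-type libraries Cma1 was not called (edgeR adjusted p = 0.0727). Tpsb2, a tryptase, had 2 counts in aged_WT and 122 in MN1_WT, a ratio of 44 after library scaling with an exact 95% counting interval of 11.9 to 368. Mcpt4, another chymase, had 1 count against 112, a ratio of 80.9 (14.2 to 3222). These intervals cover counting error only. Without any 1 of the aged_WT libraries 0 of the 13 were called, without MN1_WT replicate 2 there was 1, and without MN1_WT replicate 4 there were 5. The summed level of the list was 1040 to 1645 CPM in aged_WT and 2038, 3811 and 1790 CPM in MN1_WT.

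Maturing myeloid and red cell genes gave few calls over the group, and more of them lay below the aged_WT range in replicate 3 than in replicates 2 and 4. Of 24 mature neutrophil genes, 15 of primary granules and 15 myeloid transcription factors 0 passed, with medians of -0.46, -0.09 and -0.81. Over all genes 1.00% were called higher and 2.58% lower. Of the 24 mature neutrophil genes 9, of the 17 monocyte genes 11 and of the 23 erythroid genes 11 were lower in all 3 MN1_WT libraries than in every aged_WT library, beside 19.4% of all genes. The summed level of the mature neutrophil list was 51734 to 74562 CPM in aged_WT and 44418, 20405 and 50543 CPM in MN1_WT replicates 2, 3 and 4. Of 17 secondary and tertiary granule genes 1 fell, beside 2.58% of all genes, and 1 call says little about a list of this size. This was Olfm4, a granule glycoprotein of a neutrophil subset, which fell from 200, 250 and 199 CPM to 30.5, 14.3 and 48.5 CPM (-2.8 ± 0.6, edgeR adjusted p = 0.0334). Of 17 monocyte genes likewise only 1 fell, beside the same share, the activating receptor Cd300e (-3.4 ± 0.83, edgeR adjusted p = 0.0486). Of these 17, 16 lay below the aged_WT range in replicate 3 against 2 in replicate 2 and 1 in replicate 4. Of 23 erythroid genes 0 passed, with a median of -1.14, and 17 lay below the range in replicate 3, 2 in replicate 2 and 0 in replicate 4; over all genes the shares below were 8.47%, 2.53% and 2.61%. The aged_WT libraries differed widely there, with Hba-a1, an alpha globin, at 778, 2033 and 4680 CPM against 378, 130 and 464 CPM in MN1_WT. Olfm4 was not called without any 1 aged_WT library or MN1_WT replicate 2 or 3 (edgeR adjusted p 0.0648 to 0.109), nor Cd300e in any leave-one-out fit (0.0673 to 0.146) or with only the 6 wild-type libraries (0.0508).

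Among the remaining genes with large changes, Alb, serum albumin of the liver, had 451, 436 and 391 counts in the aged_WT libraries and 0 in each MN1_WT library. With a floor of 3 counts over the MN1_WT group it was at least 590-fold lower (edgeR adjusted p = 0.000945). Some other transcripts made by the liver were lower too. Of a list of 24 liver genes, written after these values were seen, all were tested. Among them 18 fell and 0 rose, beside 2.58% and 1.00% of all genes, and 12 were among the 64 genes called in every leave-one-out fit. Because the list was written from these data, its counts describe it and are no separate support. Ttr, transthyretin, fell from 3.64, 1.94 and 2.19 CPM to 0 CPM in each MN1_WT library (edgeR adjusted p = 0.00782), and Hpx, hemopexin, from 3.58, 1.89 and 1.88 CPM to 0, 0.0348 and 0.0791 CPM (edgeR adjusted p = 0.0071). Ahsg, fetuin-A, did not pass, at 7.05, 2.38 and 3.92 CPM in aged_WT and at 0.0383, 16.8 and 0.0396 CPM in MN1_WT replicates 2, 3 and 4 (edgeR adjusted p = 0.898). In every aged_WT library each of the 24 had at least 1 count, and 13, 11 and 9 had none in MN1_WT replicates 2, 3 and 4. Most of the 24 were low in aged_WT, such as Apoh at 0.284, 0.631 and 0.509 CPM, so many counts of 0 lie near the floor. Hp, haptoglobin, which neutrophil precursors also make, was at 603 CPM or more in every library and did not pass (edgeR adjusted p = 0.826). The part of liver transcripts in the other results was not tested. Hepacam2, an immunoglobulin-like adhesion molecule, fell from 8.47, 10.9 and 6.52 CPM to 0.536, 0.278 and 0.317 CPM (-4.5 ± 0.45, edgeR adjusted p = 0.0017). Alb and Hepacam2 held in all 6 leave-one-out fits. Angpt2, an angiopoietin, was at 0.153 to 0.194 CPM in aged_WT and at 6.47, 6.3 and 0.356 CPM in MN1_WT (4.62 ± 1.01, edgeR adjusted p = 0.0345), and was called only when MN1_WT replicate 4 was the library left out (otherwise 0.0593 to 0.14), and did not pass the filter with only the 6 wild-type libraries. Limch1, an actin-binding protein, was at 0.398 to 0.764 CPM in aged_WT and at 1.34, 48 and 3.17 CPM in MN1_WT (4.93 ± 1.18, edgeR adjusted p = 0.0461), and was not called without any 1 aged_WT library (0.149, 0.171 and 0.15) or MN1_WT replicate 3 (0.0668), nor with only the 6 wild-type libraries (0.103). Single members of other lists rose: Hk1 of glycolysis (0.59 ± 0.13), Nlrc5, the activator of MHC class I genes (1.07 ± 0.25), and Itga5, an integrin (0.75 ± 0.15), with edgeR adjusted p of 0.0367, 0.0439 and 0.0252. Their lists had 26, 18 and 23 tested members, each with 1 called higher, beside 1.00% of all genes. In the list of Itga5 1 other member, Ccr7, fell. Hk1 and Nlrc5 were not called in any leave-one-out fit, nor Hk1 with only the 6 wild-type libraries (edgeR adjusted p = 0.0512), and Itga5 was called in 1 of 6. The type I interferon, TNF and NF-kB, p53, cholesterol, eosinophil, cytokine receptor, retinoic acid and HoxB lists had 0 members called. They had 27, 26, 19, 27, 11, 20, 10 and 3 tested members, in that order, beside 3.58% of all genes called.

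**Figure D5:**
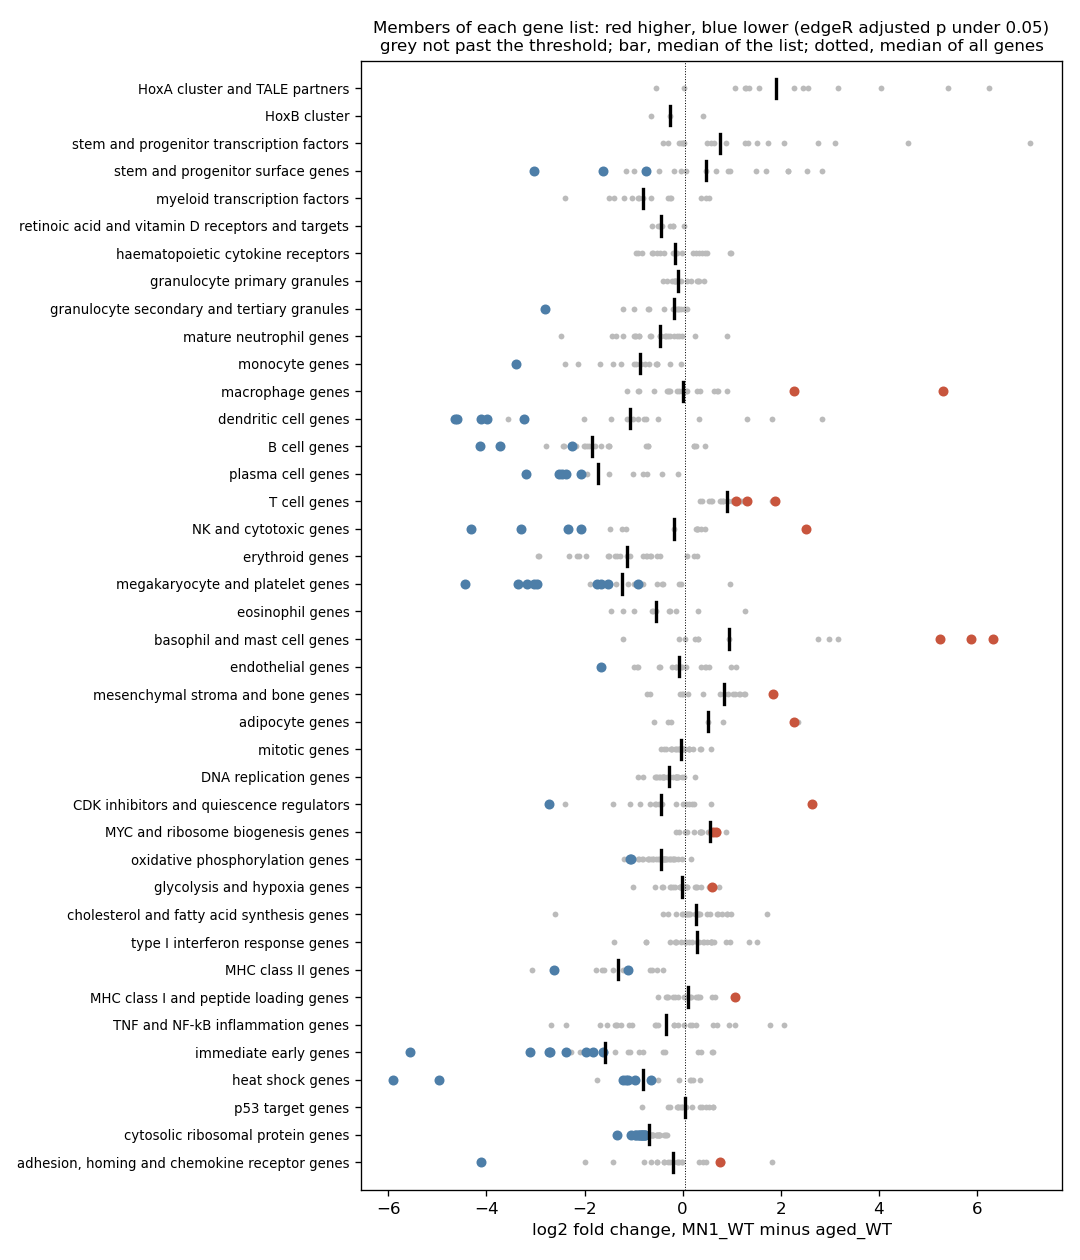
Log2 fold change of MN1_WT against aged_WT (horizontal axis) for the tested members of 40 gene lists (rows); red and blue points passed as higher and lower, grey points did not pass, bars are list medians and the dotted line the median of all genes, 0.06. Blue points are most numerous in the ribosomal protein (14), platelet (9), immediate early (8) and heat shock (7) rows. They also lie in other rows, such as plasma cell and dendritic cell with 5 each. The HoxA row has a median of 1.91 and no coloured point.

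The same contrast in knockout marrow gave more calls. Between MN1_KO and aged_KO 5281 genes differed (37.9% of those tested), 2936 of them higher (21.1%) and 2345 lower (16.8%), and 277 of the 499 genes called in wild type were called in the same direction there, 11 in the opposite direction and 211 not at all. Mn1 was at 10.3 ± 17 CPM in MN1_WT and at 33.9 ± 10 CPM in MN1_KO (mean ± SD, n = 3). The difference between the 2 contrasts passed for 463 genes (3.32%), 267 with the more positive change in wild type (1.92%) and 196 with the more negative (1.41%), of which 52 were among the 499. It was not called for Fosb, at -5.55 in wild type and -5.6 in knockout (difference 0.05 ± 0.77, edgeR adjusted p = 0.98), nor for Hspa8, at -1.22 and -1.05 (difference -0.17 ± 0.22, edgeR adjusted p = 0.67). The ribosomal protein list had a median of -0.69 in wild type and 0.26 in knockout; the difference was not tested for the list. Gpnmb rose by 5.3 in wild type and by 1.57 in knockout (difference 3.73 ± 0.68, edgeR adjusted p = 0.0219). Cd79b fell by 2.25 in wild type and was at 0.31 in knockout (difference -2.56 ± 0.54, edgeR adjusted p = 0.0342), where the aged level was already 16.1 ± 2.5 CPM against 162 ± 64 in aged_WT. The count of 463 rested on single libraries: it was 3337 without MN1_WT replicate 3, 857 without MN1_KO replicate 8 and 53 to 296 without any 1 of the other 10 libraries.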

How the data were processed

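RNA from mouse bone marrow was sequenced by the authors as poly(A)-selected, stranded libraries (TruSeq Stranded mRNA, per the labels' protocols). The authors deposited an expected count for each gene symbol, and the submitters' processing notes list RSEM 1.2.28, Bowtie2 2.3.4.3 and the build mm10; the annotation is not given in the sources used here. The deposited TPM values were used only to set genes side by side within a library, and 12 FPKM columns were not used. Expected counts were rounded, filtered with filterByExpr and scaled by TMM, and 1 fit of all 12 libraries with 4 group means was tested with edgeR 4.0.16 (quasi-likelihood, robust) in R 4.3.3, with Benjamini-Hochberg adjustment over all tested genes and a threshold of 0.05. DESeq2 1.42.0, limma 3.58.1, other scalings and filters, and leaving out libraries were alternatives. Depth was 16544407 to 28409046 counts per library.

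The members, the 41 gene lists and the tests were chosen with earlier results of these data known, so lists are described by counts and medians without a set test. Named genes are Mn1, Hopx, Hoxa9, Meis1 and sex-specific genes, the 10 largest changes past the threshold in each direction (predicted genes and genes with a mean log2 CPM under 1 left out, no overlap of the groups), up to 4 members of a list with 3 or more calls and 2 of other lists by smallest p, and up to 4 genes per pattern among the MN1_WT libraries. Some genes that this rule selects are left out of the text. Members named without values beside a count were chosen after their values were seen. Gene positions and exon lengths are from GENCODE M21 (GRCm38), and 96.6% of tested genes had a length. Folds against a group without any count use a group floor of 3 counts, and bounds and intervals cover counting error only.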

Additional observations from a re-analysis of the deposited data

Results flagged for a closer look

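The change from aged_WT to MN1_WT differed from the change from aged_KO to MN1_KO for 463 genes, by edgeR's test of the difference itself. Of the 95 genes followed through every alternative, 8 were among them, beside 3.32% of all tested genes. Many of these 95 were picked by p, size of change or pattern in the same data, so the 8 give no separate support. The edgeR adjusted p of these 8 differences lay between 0.0134 (Hopx) and 0.035 (Sqle). How each of the 8 differences held with a library left out is not given here. Values are the log2 change in wild type minus that in knockout, with its SE, between libraries as labelled. Hopx differed by -6.12 ± 0.96: it was at 21.8 ± 12 CPM in aged_WT and 21.4 ± 8.3 in MN1_WT, and at 0.047 ± 0.081 in aged_KO and 2.96 ± 0.14 in MN1_KO (mean ± SD, n = 3). Hoxb4 differed by 3.64 ± 0.58, with 6.3 ± 0.59 and 5.28 ± 2.7 CPM in wild type and 9.51 ± 1 and 0.629 ± 0.21 CPM in knockout. Gpnmb differed by 3.73 ± 0.68 and Olfm4 by -4.50 ± 0.83, Olfm4 having fallen in wild type and risen in knockout, where it reached 575 ± 410 CPM. Cd79b differed by -2.56 ± 0.54 and H2-DMb1 by -1.67 ± 0.28. Sqle and Hmgcs1, enzymes of cholesterol synthesis, differed by 1.67 ± 0.35 and 1.49 ± 0.3. They stood at 12.1 ± 0.9 and 22.8 ± 5.4 CPM and at 33.1 ± 3.7 and 57.9 ± 9.2 CPM in aged_WT and MN1_WT, without a call within wild type (edgeR adjusted p = 0.0665 and 0.0592). In knockout they fell, Sqle from 18.7 ± 6.3 to 11.1 ± 1.4 CPM and Hmgcs1 from 52.6 ± 5.8 to 32.8 ± 9.3 CPM (edgeR adjusted p = 0.0355 and 0.0281).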

How the results depend on the processing

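Against 499 genes called, DESeq2 gave 1791, and leaving out 1 wild-type library gave 78 to 397. Without MN1_WT replicates 2 and 4 the count was 2465, without the MN1_KO group 1529 and without the aged_KO group 217; these 3 settings were chosen after seeing the data. Against 463 genes whose change differed between genotypes, DESeq2 gave 1671, leaving out 1 library gave 53 to 3337, and leaving out MN1_WT replicates 2 and 4 gave 40. The cause of these moves was not tested. A distance of 2 log2 units gave 8 genes above and 31 below in all 3 MN1_WT libraries, and 465 above and 220 below in replicate 3 only. Library totals without TMM gave 53 above in all 3 and 552 below in replicate 3 only, a setting also added after seeing the data. Hopx changed sign with limma-trend (0.00), without TMM (0.10), and without MN1_WT replicate 3 or aged_WT replicate 6 (0.27 and 0.50; its range without 1 library was -0.24 to 0.50). Xist changed sign with limma-trend (-3.39) and without MN1_WT replicate 3 (-5.81, edgeR adjusted p = 0.0242, range up to 1.60). Without that replicate Mn1 (-1.71, range up to 4.09), Meis1 (-0.61, up to 3.08), Flt3 (-1.67, up to 3.41) and Hoxb4 (0.11, down to -0.60) changed sign too. No paired analysis was possible because the aged_WT and MN1_WT libraries share no replicate number. The 3 libraries per group, with 1 of the 3 labelled MN1_WT apart from the others, limit what the group means can show, and depth limits genes with few counts such as Mcpt4.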
